A study of Allium mongolicum with 12 samples.

Results

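Roots of Allium mongolicum, a wild onion of dry Asian grassland, were compared before stress and after 24 h in a mixed saline-alkali solution, across the RNA features that were well expressed in either condition. A feature entered when its mean over the 6 libraries was at least 5 CPM, where CPM is the estimated count divided by the library total and multiplied by 1e6. This held for 20375 of the 98328 assembled features (20.7%), and these carried between 92.5% and 94.2% of the counts of each of the 6 libraries. The control group (CK) is roots at 0 h, and the treated group (T24) is roots at 24 h, with 3 libraries each of the 12 in the series. The solution held sodium sulfate and sodium bicarbonate at 9 parts each and sodium chloride and sodium carbonate at 1 part each, with a total salinity of 150 mmol/L. The labels name no genotype or line, and all seedlings grew 45 days in pots and spent 7 days in diluted Hoagland nutrient solution before the treatment. For each group 20 seedlings were drawn, and the labels do not tell how they were pooled into libraries. The p-values thus measure only how these libraries spread, and that spread may be technical. There is no unstressed library taken at 24 h among the 12, so the effects of the solution and of elapsed time cannot be told apart. Library totals ran from 23099287 to 26388120 in the 6 libraries, so that 3 counts corresponded to 0.114 to 0.130 CPM. The tissue label could not be checked against root marker genes, because the table gives assembly identifiers without gene names.

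A saline-alkali solution acts on a root in several ways at once. The dissolved salts lower the water potential, sodium competes with potassium at uptake, and bicarbonate and carbonate raise the pH, which lowers the solubility of iron and phosphate. Roots are known to respond with sodium export and storage in the vacuole, with osmolytes such as proline, with acid release and with changes of the cell wall. The series names phenylpropanoid metabolism, the route from phenylalanine to lignin and flavonoids, as its subject. No feature could be placed in that route or in any other pathway, and the results below describe how many features changed, how far, and how the change compared with the spread of the control roots.

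Differences among the control libraries reached the size of the smallest differences between control and stressed libraries. Between CK replicates 1 and 3, 2973 features (14.6%) differed at least 2-fold, between CK replicates 2 and 3 it was 2325 (11.4%), and between CK replicates 1 and 2 it was 2187 (10.7%). Between CK replicate 2 and the single T24 libraries, 2900 to 3032 features (14.2% to 14.9%) differed at least 2-fold, which is about the distance between CK replicates 1 and 3. Against CK replicate 1 the T24 libraries differed in 3186 to 3329 features, and against CK replicate 3 in 4240 to 4363. Among the T24 libraries, in contrast, only 68 to 71 features (0.334% to 0.348%) differed at least 2-fold. Pearson correlations of log2 CPM across the 20375 features, which are not independent replicates, were 0.989 to 0.990 within T24, 0.880 to 0.909 within CK and 0.817 to 0.876 between the groups. The biological coefficient of variation, the spread beyond counting noise, was 8.15% in T24 and 37.4% in CK over these features. At 48 h and 72 h it was 37.8% and 26.2%. The labels give the T24 libraries as 3 samples and they are kept as 3, but they carry little information on how stressed roots vary.

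**Figure D1:**
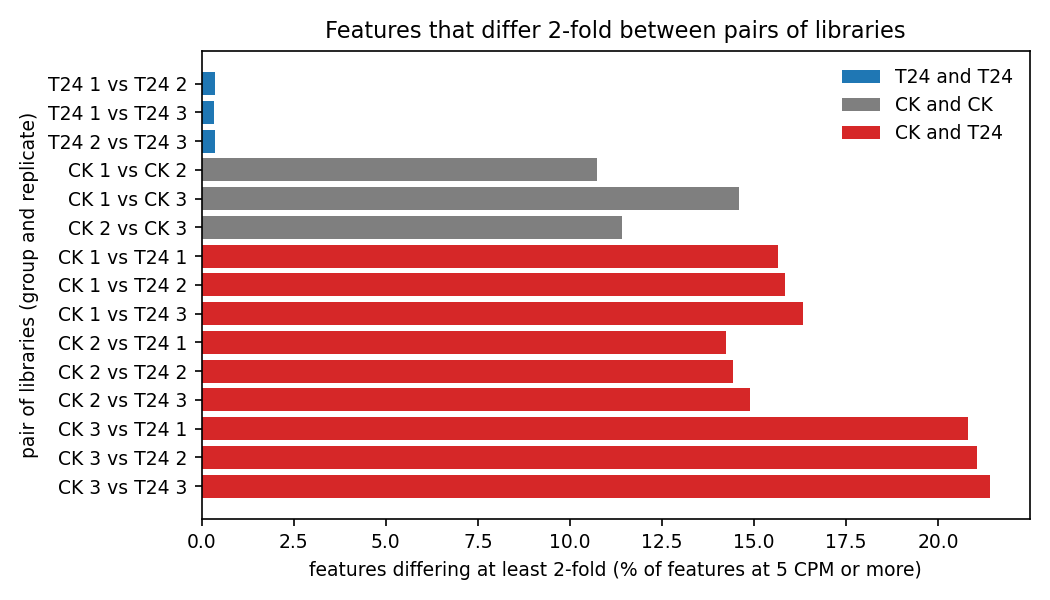
Percentage of the features at 5 CPM or more that differ at least 2-fold between each pair of the 6 libraries, with 1 bar per pair and pairs coloured by the groups they join. The T24 pairs lie at 0.334% to 0.348%, the CK pairs at 10.7% to 14.6% and the pairs of CK with T24 at 14.2% to 21.4%.

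Most mean differences at 24 h were small, and the control libraries spread widely. On the scale of log2(CPM + 0.5), the median distance between the highest and the lowest CK library was 0.50, against 0.16 for the T24 libraries. The median absolute difference between the T24 mean and the CK mean was 0.32, which is smaller than the median CK range. These are unlike measures, since a range spans single libraries and the difference is between means. The CK range exceeded the T24 range in 17720 of the 20375 features (87.0%). A CK range over 1, which is a 2-fold difference among unstressed roots, was present in 4463 features, and a T24 range over 1 in 164. For 5620 features (27.6%) all 3 T24 libraries lay inside the CK range. The mean difference was under 0.5 in size for 13440 features (66.0%) and from 0.5 to 1 for 4139. It was 1 or more upwards for 1449 and downwards for 1347 features, and 2 or more upwards for 320 and downwards for 148.

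**Figure D2:**
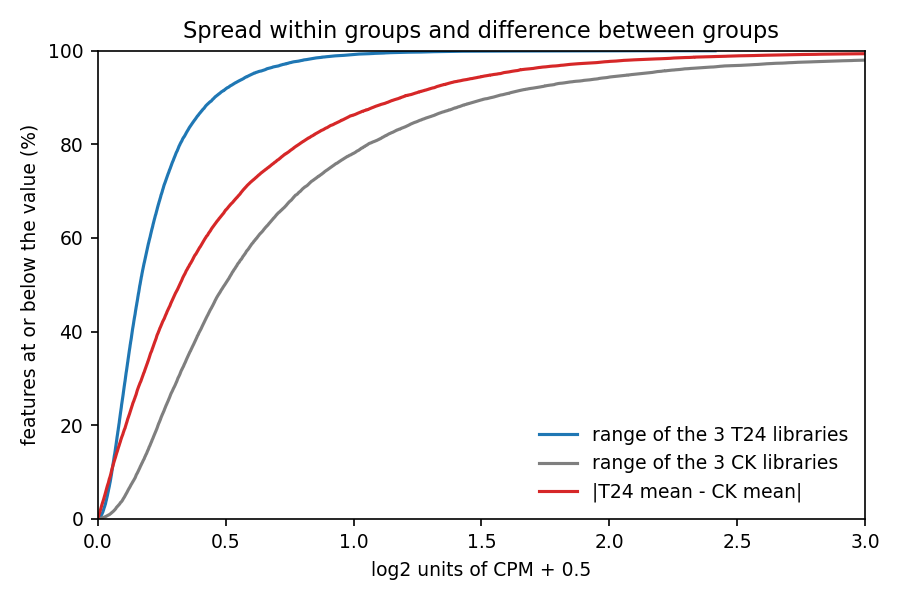
Cumulative percentage of the 20375 features (vertical axis) against 3 quantities in log2 units of CPM + 0.5 (horizontal axis, cut at 3): the range of the T24 libraries, the range of the CK libraries and the absolute difference of the group means. At the median the difference (0.32) lies between the T24 range (0.16) and the CK range (0.50); in the lower tail the curves of the difference and the T24 range cross.

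After 24 h, 651 of these features were called higher than in CK and 997 were called lower, among 20374 tested (edgeR's quasi-likelihood test on all 12 libraries, two-sided, Benjamini-Hochberg adjusted p below 0.05 over all 76273 features tested). Together 8.09% of the 20375 were called, against 4.12% of all features tested; the background was 2.62% for higher and 1.5% for lower calls, against 3.20% and 4.89% here. The median log2 change of the rises was 1.38 (2.60-fold) and that of the falls -1.17 (2.25-fold), while the median over all 20374 was -0.09 and over all features tested 0.08. Of the rises, 473 were at least 2-fold and 168 at least 4-fold; of the falls, 619 and 94. The excess of falls depended on the scaling: library totals alone gave 943 rises and 692 falls, and median-of-ratios factors gave 619 and 1060. With library totals alone, the median over the 20374 moved from -0.09 to 0.05. Over all features tested it moved from 0.08 to 0.21. In bulk roots, fewer cells of a type and less RNA per cell cannot be told apart.

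These counts changed strongly with the libraries in the fit. The low-count filter was run anew in each edgeR fit, so the features tested changed as well. Without T24 replicate 1, 2 or 3 the calls fell from 1648 to 199, 201 or 206, of which 149, 147 or 147 were higher, so that rises then outnumbered falls. These fits tested 82176, 82014 and 82123 features, against 76273 with all libraries. With all libraries and no low-count filter, 98328 features were tested and the calls were 1139. The share of the filter in the lower counts was not tested. With the T24 libraries averaged and entered as 1, edgeR called 0 features, and 2166 of the 20375 had an unadjusted p below 0.05. In that fit the 24 h group has 1 sample, which is assumed to vary like the libraries of the other 3 groups. DESeq2, limma with a variance per group and edgeR on the CK and T24 libraries alone called 3862, 3405 and 3595. Without CK replicate 1 the calls were 503 higher and 612 lower, without CK replicate 2 they were 496 and 551, and without CK replicate 3 they were 335 and 399. Without T48 replicate 2, which enters the filter, the scaling and the shared spread, they were 1049 and 2013, with 82262 features tested. All 1648 features were among these calls with the same direction.

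**Figure D3:**
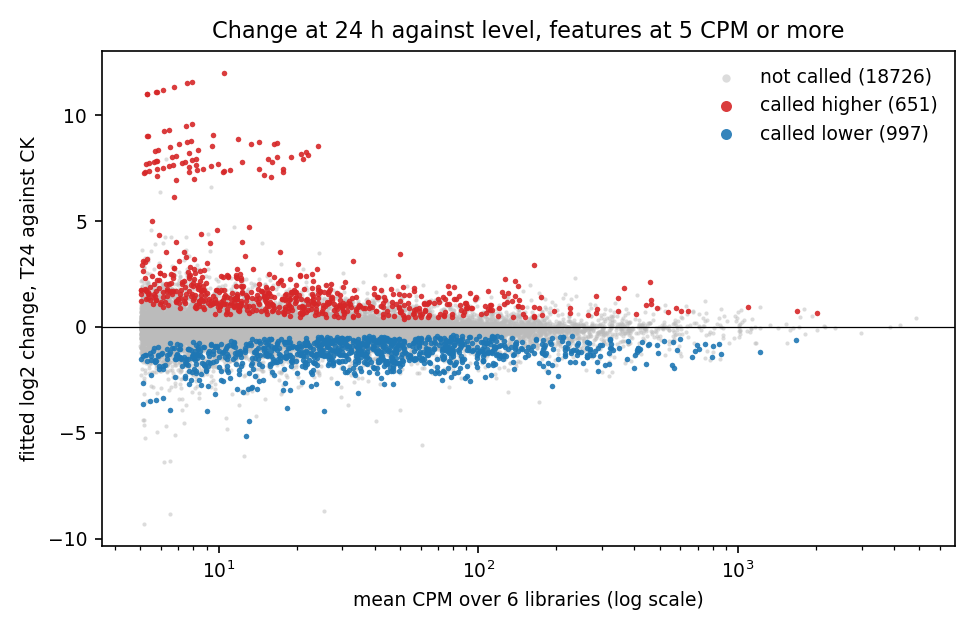
Fitted log2 change at 24 h against CK (vertical axis) by mean CPM over the 6 libraries (horizontal axis, log scale), with 1 point for each of the 20374 features tested. The 651 features called higher reach far larger changes than the 997 called lower, and the rises above a log2 change of 6.5 (76 features) stand apart as a band at low levels.

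Falls outnumbered rises among abundant features with all 12 libraries in the fit, while the balance among faint ones changed with the test. At a mean of 100 CPM or more, 58 of 1923 features were called higher and 188 lower. The excess of falls at this level was also present with library totals alone (91 and 142), with median-of-ratios factors (54 and 193), DESeq2 (105 and 406), limma (125 and 438) and edgeR on the CK and T24 libraries alone (90 and 456). At 20 to 100 CPM, 215 of 7873 were higher and 527 lower, but library totals alone gave 339 and 357. At 5 to 20 CPM, 378 of 10579 were higher and 282 lower, and here the balance turned to 739 and 945 with DESeq2, 574 and 730 with limma and 611 and 748 with the 6 libraries alone. Over all levels, leaving out 1 T24 library leaves 199 to 206 calls, most of them rises. The sizes of the called changes narrowed with level: the median rise was 2.04 at 5 to 10 CPM and 0.77 at 500 CPM or more, and the median fall went from -1.45 to -1.06. These medians cover only features that passed the test, and the CK spread was widest at 5 to 10 CPM. They do not give the size of change of all features at a level. The median CK range was 0.74 at 5 to 10 CPM and 0.36 at 50 to 100 CPM, and it was 0.47 at 500 CPM or more. The T24 range narrowed throughout, from 0.28 to 0.08. Around the lower limit, 72 features were called higher and 41 lower among the 1998 tested at 4 to 5 CPM (5.66%), and 57 and 25 among the 1510 at 5 to 6 CPM (5.43%).

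**Figure D4:**
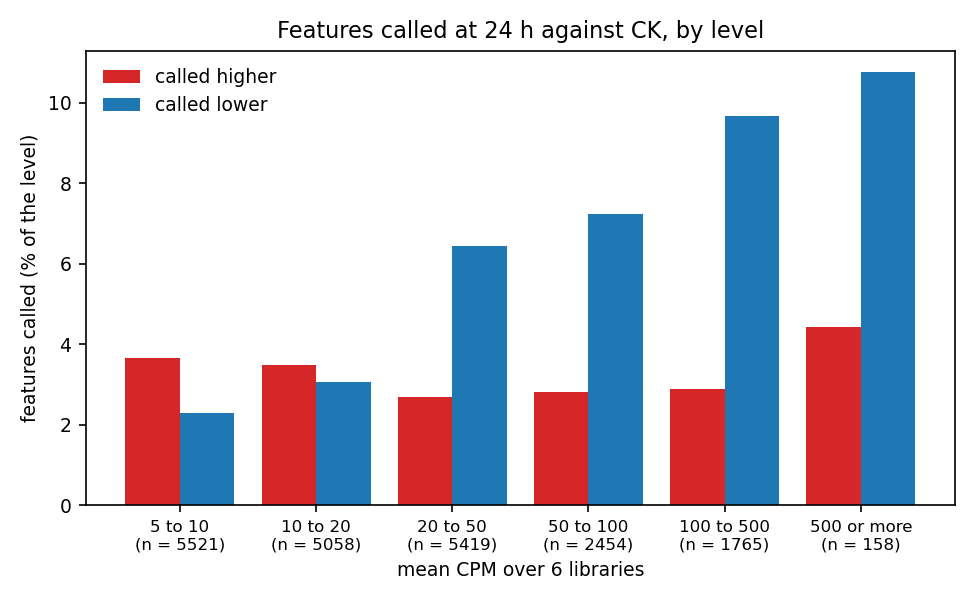
Percentage of features called higher or lower at 24 h against CK (vertical axis, edgeR adjusted p below 0.05) by mean CPM over the 6 libraries (horizontal axis, number of features under each pair of bars). Calls of falls go from 2.30% at 5 to 10 CPM to 10.8% at 500 CPM or more, while calls of rises stay between 2.69% and 4.43%.

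Part of the calls follow from how features were chosen. A mean of 5 CPM over both groups can be reached through 1 group alone, and such features had to differ. There were 1272 features under 5 CPM in CK, of which 236 were called higher, and 804 under 5 CPM in T24, of which 116 were called lower. The other 18299 reached 5 CPM in both groups, and 415 of them were called higher and 881 lower.

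The groups did not overlap for 9545 features (46.8%), against 33.7% of all features tested. Of these, 3759 had all T24 libraries above all CK libraries (background 20.7%) and 5786 had them below (background 13%). With T24 libraries that hardly differ, this mostly measures where a single value lies relative to 3 controls. A feature without any change would then also often lie outside the CK range. The share without overlap therefore does not measure how many features changed. A stricter measure is the gap between the nearest T24 and CK libraries, set against the CK range. The gap exceeded the whole CK range in 3092 features (15.2%, background 11.9%), with 1016 upwards and 2076 downwards. Among the called features this held for 469 of the 651 rises and 768 of the 997 falls, and it also held for 1855 features that were not called. The median ratio of gap to CK range was 1.73 for falls. For the 642 rises with a CK range above 0 it was 1.54.

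Every T24 library was at least 2-fold above every CK library for 413 features, 2.03% of the 20375 against a background of 3.49%. It was at least 2-fold below for 427, 2.10% against 0.781%. Of these, 284 of the 413 and 284 of the 427 were also called. Leaving out a library can only keep or raise these counts. Leaving out CK replicate 1 raised them to 696 and 805, and leaving out CK replicate 2 raised the first to 837. At 4-fold the counts were 118 above and 29 below, and at 8-fold they were 87 above and 3 below. With library totals alone the 2-fold counts were 528 and 289, and with median-of-ratios factors 405 and 442.

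The 87 features with an 8-fold gap upwards, looked at after their values were seen, were faint in control roots, and most were faint at the later times as well. They reached 5 CPM on average only through the T24 libraries, so their higher level there was largely fixed by the choice of features and is a description. Their mean in T24 ran from 9.97 to 46.9 CPM with a median of 14.9, while their median in CK was 0.0615 CPM. In 74 of the 87 every 48 h and 72 h library was below 1 CPM, and among the others group means went up to 35.0 CPM at 48 h and 75.1 CPM at 72 h. Only 4 reached 50% of their T24 level at 48 h and 3 at 72 h. In 54 of them no CK library had more than 3 counts, while no T24 library had fewer than 200, and 53 of the 54 were called higher. No count at all was seen in CK for 9, all called higher. Set against 3 counts per CK library, these 9 were at least 76.8-fold to 152-fold higher. The converse was rare: 2 features had at most 3 counts in every T24 library, and neither was called.

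Over all 20375 features, those with a higher mean in T24 gained 13.3% of the library and those with a lower mean lost 14.6%. CPM has the same total in every library and these features hold most of it, so gain and loss had to lie close together. Within these sums the called rises gained 2.46% of the library and the called falls lost 4.89%. The 997 called falls together made up 9.57%, 10.1% and 10.2% of the counts in CK replicates 1, 2 and 3, and 5.15%, 5.03% and 5.06% in T24 replicates 1, 2 and 3. Their mean was 9.97% ± 0.36 (SD, n = 3) in CK and 5.08% ± 0.060 (SD, n = 3) in T24. The 651 called rises made up 2.04%, 1.82% and 1.64% in CK and 4.26%, 4.30% and 4.31% in T24. Their mean was 1.83% ± 0.20 (SD, n = 3) in CK and 4.29% ± 0.025 (SD, n = 3) in T24. The features in these sums were selected on the same libraries, so the sums describe them and carry no test. They are shares of library totals, but which features enter depends on the scaling used for the calls: with library totals alone, 1343 of the 1648 were called in the same direction. The 10 largest gains held 23.8% of the gain of the called rises, and the 10 largest losses 11.8% of the loss of the called falls. Reaching 50% of the gain took 53 features, and 50% of the loss took 106. Of the 100 most abundant features in CK, 70 were also among the 100 most abundant in T24; 18 of the CK list were called lower and 3 higher, while 3 of the T24 list were called lower and 10 higher. A list picked by its level in 1 group favours features that are high there.

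The libraries of control roots were not equally far from the stressed ones. CK replicate 3 was the control farthest from the T24 mean in 47.0% of the called rises, 42.1% of the called falls and 42.5% of the features not called. CK replicate 1 was the nearest control in 47.5% of the rises and 40.6% of the falls. CK replicate 2 was the nearest in 38.6% of the features not called.

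Individual features show the range of these patterns. TRINITY_DN38205_c0_g1_i2_1 was the largest called rise among features above 3 counts in all 6 libraries. Its normalised levels were 0.23, 0.21 and 0.18 CPM in CK replicates 1, 2 and 3 and 37.2, 35.6 and 30.0 CPM in T24 replicates 1, 2 and 3. All T24 libraries thus lay far above all CK libraries, which held only 5, 5 and 4 counts. It passed the 5 CPM limit only through T24 and was picked for its size, so its test is no independent support. The fitted log2 change was 7.33 ± 0.50 (SE; edgeR adjusted p = 0.000426), and the gap between groups was 57.6 times the CK range on the log2(CPM + 0.5) scale. The feature was at 2 counts or fewer in every 48 h and 72 h library, as low as or lower than in the controls. Over 22 alternatives its log2 change stayed between 7.22 and 7.47 and its adjusted p between 6.29e-54 and 0.309. The highest came from averaging the T24 libraries, the only alternative that ended the call.

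TRINITY_DN44757_c1_g1_i5_2 was the most abundant called rise whose gap exceeded the CK range. It stood at 1472, 1188 and 1140 CPM in CK and 1986, 2119 and 2305 CPM in T24. The groups did not overlap, and the gap was 1.17 times the CK range. The log2 change was 0.75 ± 0.13 (SE; edgeR adjusted p = 0.0125), a 1.69-fold rise. At 48 h the mean was 2116 ± 119 CPM (SD, n = 3) and at 72 h 1710 ± 171 CPM (SD, n = 3). The call was lost without T24 replicate 1, 2 or 3 (adjusted p = 0.0576, 0.0754 and 0.0808), with the T24 libraries averaged (0.558) and with a minimum log2 change of 1 (1). Over all 22 alternatives the adjusted p ran from 8.94e-07 to 1 and the log2 change from 0.68 to 0.89.

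Among falls, TRINITY_DN27401_c0_g1_i1_4 had the largest called change. It stood at 39.0, 12.9 and 27.4 CPM in CK and 0.58, 0.82 and 0.79 CPM in T24. The CK libraries spread widely, and the T24 libraries still lay below the lowest of them, by 2.15 times the CK range. It passed the 5 CPM limit only through CK and was picked for its size, so its test is no independent support either. The log2 change was -5.17 ± 0.82 (SE; edgeR adjusted p = 0.00939), a 35.9-fold fall. At 48 h the libraries were at 13.6, 1.21 and 8.42 CPM, a split of 2 libraries near the lowest control and 1 near the stressed level, and at 72 h they were at 0.95, 0.39 and 1.39 CPM. The call was lost without T24 replicate 1, 2 or 3 (adjusted p = 0.0708, 0.0705 and 0.0669) and with those libraries averaged (0.712). Over all 22 alternatives it ran from 2.72e-10 to 0.712, and the log2 change from -5.49 to -4.77.

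TRINITY_DN39276_c0_g1_i5_3 was the most abundant called fall with a gap over the CK range, and its controls were tight. It stood at 2127, 2027 and 2120 CPM in CK and 1361, 1355 and 1356 CPM in T24. The gap was 8.28 times the CK range although the change was modest, at -0.62 ± 0.14 on the log2 scale (SE; edgeR adjusted p = 0.0321), a 1.54-fold fall. The mean was 1364 ± 285 CPM (SD, n = 3) at 48 h and 1147 ± 82.6 CPM (SD, n = 3) at 72 h. Its call was lost without CK replicate 1, 2 or 3 (adjusted p = 0.0683, 0.0578 and 0.0779), without T24 replicate 1, 2 or 3 (0.142, 0.149 and 0.146), with the T24 libraries averaged (0.895) and with a minimum log2 change of 1 (1). Over all 22 alternatives the adjusted p ran from 0.000533 to 1 and the log2 change from -0.65 to -0.49.

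**Figure D5:**
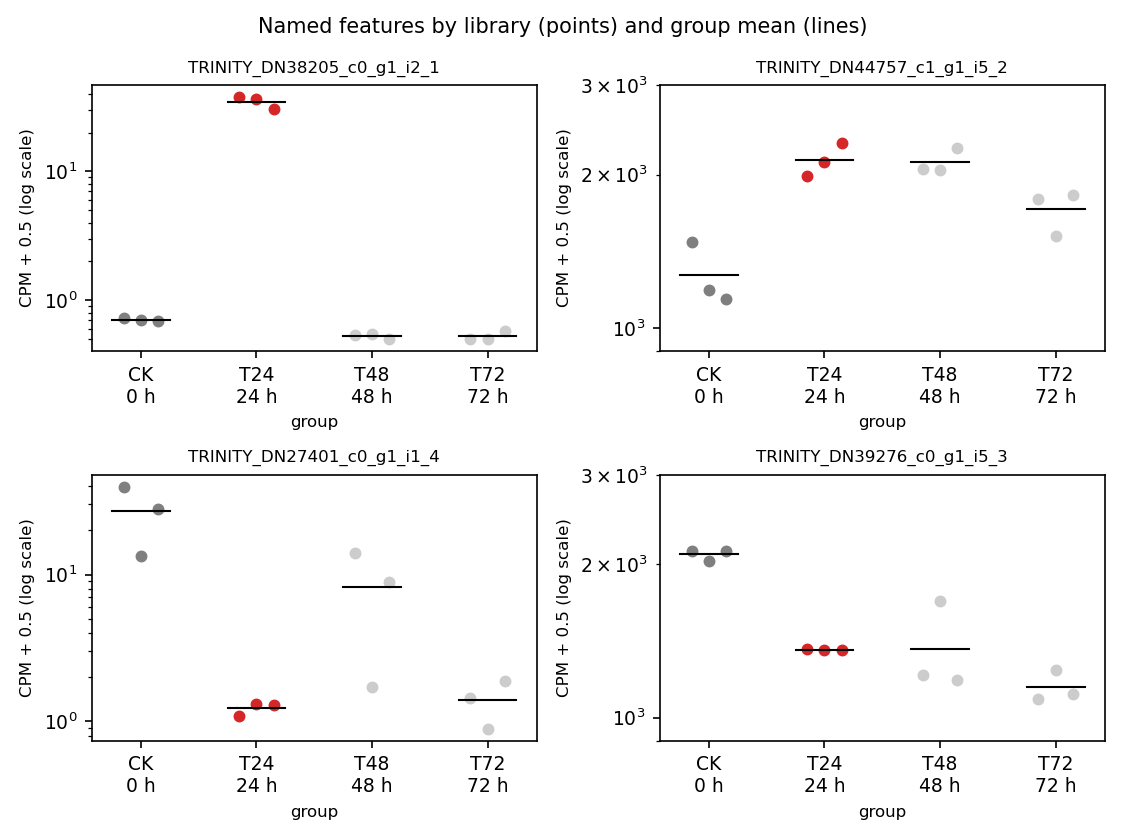
Levels of the 4 named features in all 12 libraries, as normalised CPM + 0.5 on a log scale (vertical axis, a separate range in each panel except the 2 on the right), by group (horizontal axis), with points for libraries and lines for group means. The 3 T24 points lie on one side of the 3 CK points in every panel, which the choice of these features required. The CK points of TRINITY_DN27401_c0_g1_i1_4 spread from 12.9 to 39.0 CPM.

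Feature identifiers have the form of Trinity, an assembler that builds transcripts from reads without a genome, and end in a suffix, 1 to 4, that the table does not explain. Suffix 1 was carried by 27.4% of the 20375 features, by 43.0% of the called rises (280) and by 18.8% of the called falls (187). Among the 87 features with an 8-fold gap upwards it was carried by 58. Of these 87, 82 were called, and among the other 569 called rises suffix 1 was carried by 226 (39.7%). Suffix 4 was carried by 24.7% of the features, 16.1% of the rises and 31.5% of the falls. The median log2 change was 0.00 for suffix 1 and -0.11, -0.12 and -0.14 for suffixes 2, 3 and 4. Within 1 suffix, features of the same Trinity read cluster, which are built from overlapping reads, were compared in 820 pairs, and the Pearson correlation of their mean differences was 0.378. Of 17 pairs with both features called, 15 changed in the same direction and 2 in opposite ones. Over 921 pairs that share the whole identifier except the suffix, the correlation was 0.0176. These pairs share libraries and depth, and the correlations are descriptions across features.

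Relative to the same CK libraries, the 651 features called higher at 24 h had a median log2 difference of 1.34 at 24 h, 0.47 at 48 h and 0.99 at 72 h. The 997 called lower had medians of -1.13, -0.57 and -1.12. The 3 times share their controls and the features were chosen at 24 h, so these values stand side by side without a test. In shares of the library, the called falls took 7.29% ± 1.34 (SD, n = 3) at 48 h and 4.58% ± 0.35 (SD, n = 3) at 72 h, and the called rises 3.03% ± 0.46 and 4.09% ± 0.16. T48 replicate 2 lay nearest to the controls among the 48 h libraries, with 8.78% for the falls and 2.51% for the rises, against 6.89% and 6.19%, and 3.20% and 3.39%, in T48 replicates 1 and 3.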

How the data were processed

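Total RNA of roots was sequenced as paired reads of 150 bp, and reads were trimmed with Trimmomatic, per the labels' protocols and the submitters' processing notes. Nothing in the sources used here names the assembler, the aligner or the counting tool. The authors deposited estimated counts per assembled feature, with 1 column per sample. They are not whole and were rounded here; all 12 columns were assigned by title. Features were filtered with filterByExpr (76273 of 98328 kept), libraries scaled with TMM factors, and 1 quasi-likelihood model (edgeR 4.0.16, R 4.3.3) was fitted to 4 group means with 8 residual degrees of freedom and contrasted as T24 minus CK. The fit was also run on simulated counts in which all groups had the same spread per feature. The spread of T24 and CK differs here, so that run does not show how the fit behaves with unequal spread. A standard error is the fitted change divided by the square root of F. Differences against the CK spread use log2(CPM + 0.5) with TMM factors. Floors of 3 counts cover counting error only.

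The 4 named features had to be called, exceed 3 counts in all 6 libraries and have a gap between groups over the CK range; in each direction the largest change and the most abundant were taken. Features, rule and tests were chosen with earlier results of these data known. Alternatives were other filters, RLE factors, library totals, DESeq2 1.42.0, limma 3.58.1, a replicate block, the 6 libraries alone, averaged T24 libraries, a minimum change, other pseudocounts and leaving out each library. Gene lists could not be used, since the table has no gene names, and no sequence was used here.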

Additional observations from a re-analysis of the deposited data

How the results depend on the processing

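The counts of called features moved most. DESeq2 called 1278 higher and 2584 lower, limma 1111 and 2294, and edgeR on the CK and T24 libraries alone 1092 and 2503. No low-count filter lowered the falls to 640, a minimum log2 change of 1 left 105 rises and 23 falls, and averaging the T24 libraries left 0 and 0. Leaving out 1 library gave 147 to 1049 rises and 50 to 2013 falls. It gave 426 to 837 features at least 2-fold above every control and 462 to 805 below, counts that leaving out a library cannot lower. Other pseudocounts and scalings left these last counts within 1.5 times. With the replicate number as a block the calls were 411 and 586. The labels do not say that a number is shared between groups. Deviations of same-numbered CK and T24 libraries had correlations of -0.0096, 0.0054 and -0.0064. The T24 libraries hardly differ, so these correlations cannot show whether the numbers mark a shared block. The cause of these movements was not tested. For the 4 named features, 70 values under alternatives kept their call, 18 lost it and 0 changed direction. At these depths 3 counts correspond to 0.130 CPM or less. The limit of 5 CPM applied to the mean over both groups, so 1 group could still lie at this floor. In 54 features no CK library had more than 3 counts, and in 2 features no T24 library had.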
